A study of Mus musculus with 6 samples.

Results

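The IL-23 and IL-12 pathway was followed in skin through 7 genes chosen by symbol: the cytokine chains Il23a, Il12a and Il12b, the receptor chains Il23r, Il12rb1 and Il12rb2, and the transcription factor gene Rora. All 7 were among the 34590 gene symbols counted, and all 7 passed the filter on low counts that left 16691 genes to test. The samples were skin biopsies of 3 wild type (Tnip1+/+) and 3 knockout (Tnip1-/-) C57BL/6 mice, and every mouse had imiquimod, which activates Toll-like receptor 7 and brings on psoriasis-like inflammation, applied to the skin for 2 days. Both genotypes therefore carried the treatment, and untreated skin was not analysed here. The product of Tnip1 binds ubiquitin and A20 and limits signalling to NF-kB. The sources used here give neither the age or sex of the mice nor how the knockout allele was made.

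IL-23 and IL-12 are heterodimers that share the chain encoded by Il12b. Il23a adds the chain specific to IL-23 and Il12a the chain specific to IL-12. Their receptors share the chain of Il12rb1, which pairs with that of Il23r for IL-23 and with that of Il12rb2 for IL-12. IL-23 comes mainly from dendritic cells and macrophages, acts through STAT3 and sustains T cells that make IL-17 and IL-22, the type 17 response central to psoriasis. IL-12 acts through STAT4 and favours the interferon-gamma-producing type 1 response. Rora encodes a nuclear receptor that takes part in type 17 cell differentiation and is also expressed in many other skin cells, where it belongs to the circadian clock.

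Gene counts summed to 24701074 to 31005554 in the wild type libraries and to 19529970 to 25864730 in the knockout libraries. Levels are CPM, the counts of a gene scaled to a common library size with factors from the trimmed mean of M values (TMM), given as mean ± SD over n = 3 libraries, and 3 counts stood at 0.0900 to 0.157 CPM. Tnip1 itself had 938, 739 and 703 counts in the wild type and 47, 37 and 35 in the knockout libraries. The library identifiers in the labels run in a separate series for each genotype, with IMQ in those of wild type and NORM in those of knockout libraries, although the treatment field gives imiquimod for all 6. The treatment field was followed, and what these series stand for was not given in the sources used here, so they and the genotype cannot be told apart. Markers of skeletal muscle and fat were lower in the knockout biopsies, and their summed values stand with the marker lists at the end.

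Of the 7 genes, Il23a was higher and Il12rb2 and Rora were lower in knockout skin, while Il12a, Il12b, Il23r and Il12rb1 did not pass the test. Calls rest on the quasi-likelihood test of edgeR at p under 0.05 after Benjamini-Hochberg adjustment across the 16691 genes, and every adjusted p below is of this kind. The 3 calls are 42.9% of the members, beside 45.1% of all tested genes called, 22.3% higher and 22.7% lower, so the share of members called was near that of genes at large. The same 3 members had groups that did not overlap, and 59.8% of tested genes had such groups. The members' median log2 fold change (knockout minus wild type) was 0.32, beside -0.04 over all tested genes. Without TMM factors, on library totals, the median over all genes moved to -0.19, and 2490 genes were called higher and 4809 lower in place of 3730 and 3795. With upper-quartile factors these numbers were 3178 and 4389. Every member kept its direction under both.

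**Figure D1:**
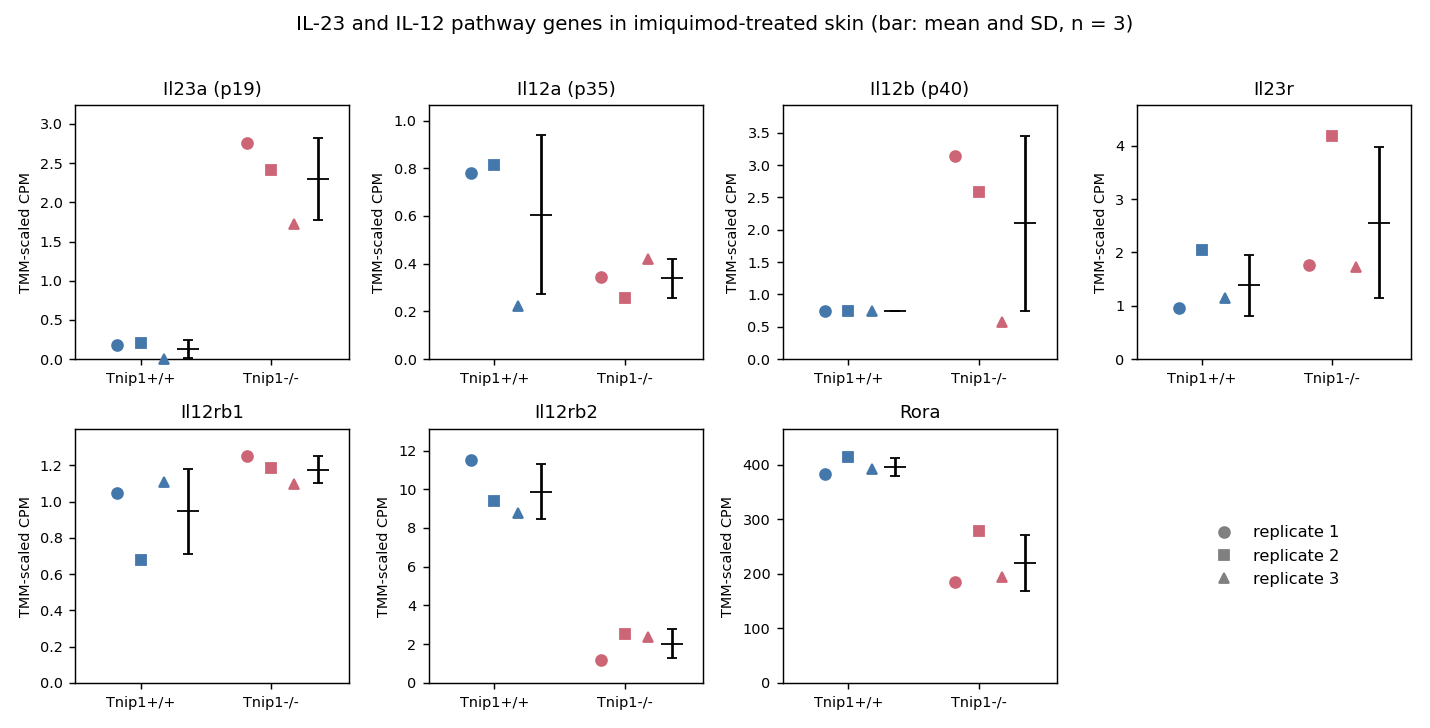
TMM-scaled CPM (y axis) of the 7 genes in each wild type (blue) and knockout (red) library, with the replicate shown by the marker and the mean and SD over 3 libraries as a bar. The Il23a points of the genotypes are apart at 0 to 0.204 and 1.72 to 2.76 CPM, and those of Il12rb2 at 8.77 to 11.5 and 1.16 to 2.54 CPM, whereas the Il12b point of knockout replicate 3 lies below the wild type points.

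Among the ligand chains, Il23a was near the detection limit in wild type skin and clearly present in knockout skin. It had 6, 6 and 0 counts in wild type replicates 1, 2 and 3 and 64, 57 and 33 in knockout replicates 1, 2 and 3, or 0.180, 0.204 and 0 CPM against 2.76, 2.41 and 1.72 CPM. Every knockout library was above every wild type library, and the lowest knockout value was that of replicate 3. The log2 fold change was 4.08 (SE 0.63, adjusted p = 0.00326 by edgeR), larger than in 99.3% of tested genes. Its wild type counts alone were too low for the filter, which Il23a passed through the knockout libraries where it is high. The call and this rank therefore hold for a gene that entered the test by its knockout level. Over the groups, 154 counts in knockout stood against 12 in wild type, a ratio of 17.5 with a 95% exact interval of 9.72 to 34.5. Such an interval pools the mice of a genotype, so it reflects counting error alone and leaves out differences between mice. It may understate counting error too, as PCR copies of a read are not separate molecules.

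Il12b, the chain that IL-23 and IL-12 share, had 25, 22 and 20 counts in the wild type and 73, 61 and 11 in the knockout libraries. In CPM the wild type libraries were nearly equal at 0.750, 0.748 and 0.740, while the knockout libraries stood at 3.15, 2.58 and 0.575. Knockout replicates 1 and 2 were thus above all wild type libraries and knockout replicate 3 was below them. The log2 fold change of 1.5 (SE 0.56) did not pass (adjusted p = 0.0631 by edgeR). It passed without knockout replicate 3 (1.94, adjusted p = 0.00682 by edgeR) and by DESeq2 (1.515, adjusted p = 0.0281).

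Il12a, the chain specific to IL-12, had 26, 24 and 6 counts in the wild type and 8, 6 and 8 in the knockout libraries. Wild type replicates 1 and 2 stood at 0.780 and 0.816 CPM, above the knockout libraries at 0.345, 0.254 and 0.418, but wild type replicate 3 at 0.222 CPM was below all of them. Its log2 fold change was -0.86 (SE 0.53, adjusted p = 0.218 by edgeR). Without wild type replicate 3 it passed at -1.22 (adjusted p = 0.0452 by edgeR). The summed counts were 56 in wild type and 22 in knockout, a knockout to wild type ratio of 0.535 (95% exact interval 0.311 to 0.890, counting error only).

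Ratios of 2 chains within a library do not depend on how libraries are scaled, and 4 pairs that share a chain were compared (log2 of the ratio of counts, 0.5 count added to each). The log2 ratio of Il23a to Il12b was -1.97, -1.79 and -5.36 in the wild type and -0.19, -0.10 and 1.54 in the knockout libraries. In counts, Il12b exceeded Il23a in each wild type library, the 2 were nearly equal in knockout replicates 1 and 2, and Il23a was above Il12b in knockout replicate 3. The ratio was 3.46 higher in knockout on the log2 scale, and the groups did not overlap (exact two-sided permutation test p = 0.1, adjusted p = 0.2 over the 4 pairs). With 3 libraries against 3 this test cannot go below 0.1. Wild type replicate 3 had no Il23a count, so its ratio rests on the added 0.5 count, and without it the difference was 2.30. The log2 ratio of Il12a to Il12b was 0.06, 0.12 and -1.66 in the wild type and -3.11, -3.24 and -0.44 in the knockout libraries. These groups overlapped, and the difference of -1.77 did not pass (exact permutation p = 0.2, adjusted p = 0.267).

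**Figure D2:**
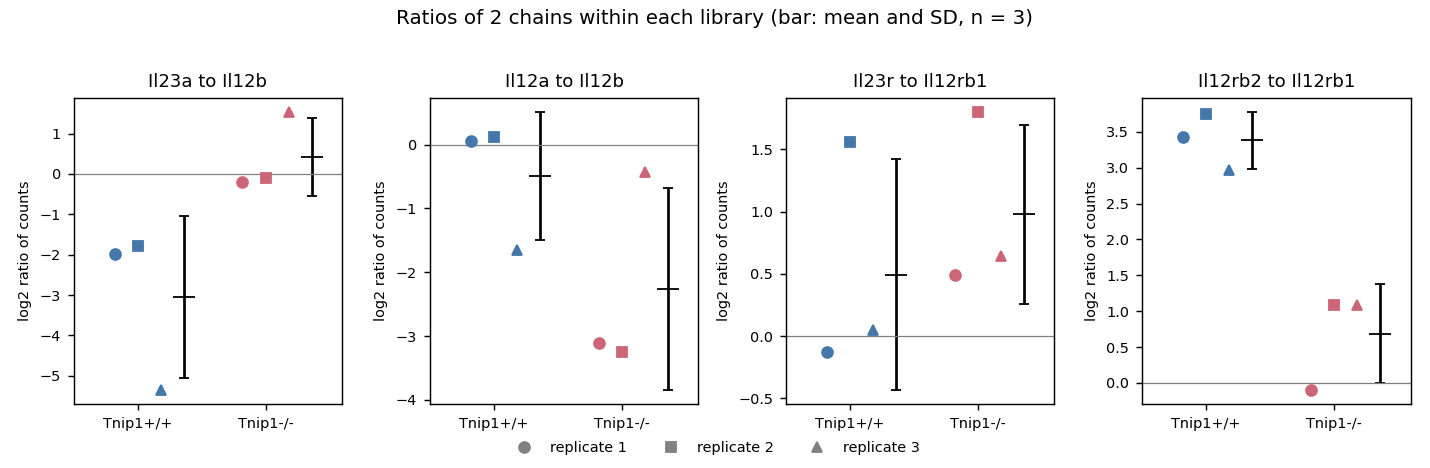
Log2 ratio of the counts of 2 chains (y axis) in each wild type (blue) and knockout (red) library, with the replicate as the marker and the mean and SD over 3 libraries as a bar. The genotypes are apart for Il23a to Il12b and for Il12rb2 to Il12rb1, and overlap for Il12a to Il12b and for Il23r to Il12rb1.

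Among the receptor chains, the IL-12-specific Il12rb2 fell and the IL-23-specific Il23r did not pass the test. Il12rb2 had 383, 276 and 237 counts in the wild type and 27, 60 and 45 in the knockout libraries, or 11.5, 9.38 and 8.77 CPM against 1.16, 2.54 and 2.35 CPM. All knockout libraries were far below all wild type libraries, and the knockout mean was 4.90-fold lower. The log2 fold change was -2.29 (SE 0.31, adjusted p = 0.00209 by edgeR), and 2.85% of tested genes had a lower one. In the GENCODE vM21 annotation of GRCm38, a later build than that of the counts, 1519 exonic bases of Il12rb2 overlap exons of Serbp1 on the other strand, and the strand option of the counting was not given in the sources used here. Serbp1, an mRNA-binding protein gene, stood at 448 ± 70.9 CPM in the wild type and 491 ± 21.7 CPM in knockout skin (log2 0.13, adjusted p = 0.495 by edgeR), with groups that overlapped.

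Il23r had 32, 60 and 31 counts in the wild type and 41, 99 and 33 in the knockout libraries. In CPM the wild type libraries stood at 0.960, 2.04 and 1.15 and the knockout libraries at 1.77, 4.19 and 1.72. Replicate 2 was the highest of each genotype, and the groups overlapped. The log2 fold change was 0.90 (SE 0.46, adjusted p = 0.150 by edgeR). It stood at 0.36 without knockout replicate 2 and at 0.01 when a score of muscle and fat markers entered the fit. That score was lowest in knockout replicate 2 (4.51, against 7.94 and 7.64 in knockout replicates 1 and 3), so these 2 fits are not separate checks. Il12rb1, the shared chain, had 35, 20 and 30 counts in the wild type and 29, 28 and 21 in the knockout libraries, or 1.05, 0.680 and 1.11 against 1.25, 1.19 and 1.10 CPM. These groups overlapped as well, with a log2 fold change of 0.32 (SE 0.28, adjusted p = 0.383 by edgeR).

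Within libraries, the log2 ratio of Il12rb2 to Il12rb1 was 3.43, 3.75 and 2.96 in wild type and -0.10, 1.09 and 1.08 in knockout skin. The IL-12-specific chain was thus far above the shared chain in each wild type library, less far above it in knockout replicates 2 and 3 and close to it in knockout replicate 1. The difference was -2.69 with groups that did not overlap (exact two-sided permutation test p = 0.1, adjusted p = 0.2). The log2 ratio of Il23r to Il12rb1 was -0.13, 1.56 and 0.05 in wild type and 0.49, 1.80 and 0.64 in knockout skin, a difference of 0.49 that was smaller than the SD within either genotype (exact permutation p = 0.5, adjusted p = 0.5).

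Il12rb2 and Il23r lie on chromosome 6, and their start regions are shown because Il12rb2 was called lower and Il23r was not called. Whether these 2 genes differed from each other in their change was not tested. RefSeq start regions of 300 bases (250 before to 50 after the start, GRCm38.p6) were found for 5 of the 7 genes, with 2 for Il12a. None was found for Il23a or Il12rb1. They were searched on both strands for the NF-kB consensus of 10 bases, the STAT gamma-activated site TTCNNNGAA and the ROR half-site AGGTCA, to which ROR proteins bind. Of 32851 such regions of mouse genes, 8.46%, 8.3% and 16.3% held these motifs. Capitals mark the matches. The region of Il12rb2 (chr6:67376139-67376438, minus strand) held a STAT site that begins at position -123 from the start and an NF-kB match that begins at position -1, each read on both strands. The region of Il23r (chr6:67491806-67492105, minus strand) held ROR half-sites that begin at positions -229 and -66. No matches overlapped, and the regions of Il12a, Il12b and Rora held no whole match to the 3 motifs. Partial or variant sites were not searched for. A match describes the sequence and does not show that a factor binds there.
Il12rb2: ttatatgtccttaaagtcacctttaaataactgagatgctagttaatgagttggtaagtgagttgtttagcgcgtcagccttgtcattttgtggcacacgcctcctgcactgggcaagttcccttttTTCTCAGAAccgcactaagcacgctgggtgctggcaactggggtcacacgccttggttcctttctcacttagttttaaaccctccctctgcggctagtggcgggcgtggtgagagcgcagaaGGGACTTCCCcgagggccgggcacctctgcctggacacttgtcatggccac
Il23r: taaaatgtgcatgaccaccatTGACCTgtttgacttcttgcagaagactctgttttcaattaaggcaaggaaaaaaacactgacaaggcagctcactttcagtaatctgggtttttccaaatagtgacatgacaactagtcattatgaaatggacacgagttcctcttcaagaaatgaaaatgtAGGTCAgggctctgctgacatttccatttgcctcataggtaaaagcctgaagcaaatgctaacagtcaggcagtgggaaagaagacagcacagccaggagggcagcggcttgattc

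Rora was by far the most abundant of the 7 genes and was lower in knockout skin. It had 12741, 12182 and 10590 counts in the wild type and 4294, 6595 and 3732 in the knockout libraries, or 382, 414 and 392 against 185, 279 and 195 CPM. Every knockout library was below every wild type library, with knockout replicate 2 nearest to them. The mean was 1.80-fold lower, with a log2 fold change of -0.85 (SE 0.18, adjusted p = 0.00892 by edgeR). An annotated antisense gene, Gm15511, shares 82 exonic bases with Rora in GRCm38 and had 0 to 2 counts in any library.

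**Figure D3:**
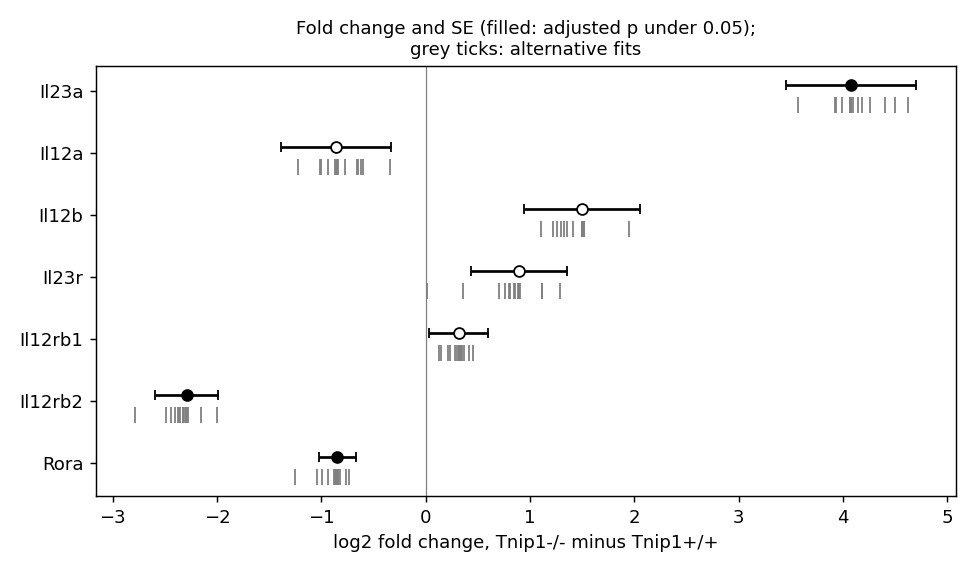
Log2 fold change, knockout minus wild type (x axis), of each gene with its SE, filled where the adjusted p was under 0.05, and grey ticks for the alternative fits. Il23a, Il12rb2 and Rora stay on their side of 0 in every fit, and the ticks of Il23r reach 0.01.

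To set genes beside each other, levels were divided by the exonic length of the gene in GENCODE vM21 (CPM per kilobase). In wild type skin Rora led at 30.3 ± 1.24 CPM per kilobase, followed by Il12rb2 at 2.60 ± 0.376, Il23r at 0.556 ± 0.232, Il12b at 0.379 ± 0.003, Il12a at 0.356 ± 0.196, Il12rb1 at 0.231 ± 0.057 and Il23a at 0.057 ± 0.050. From Il23r down to Il12rb1, neighbours in this order differed by less than the larger of their SDs. In knockout skin Rora stood at 16.8 ± 3.96 CPM per kilobase. Il12b (1.07 ± 0.687), Il23r (1.03 ± 0.568) and Il23a (1.02 ± 0.234) came next and did not differ beyond their spread. Il12rb2 (0.532 ± 0.197), Il12rb1 (0.287 ± 0.019) and Il12a (0.199 ± 0.048) were last, so Il23a moved from the lowest level to that of Il12b, and Il12a became the lowest.

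The tested genes most like each member were those with the smallest root mean square difference in log2 CPM over the 6 libraries, each gene centred on its mean. For Il23a they were Lcn2 (0.161), a siderophore-binding protein gene, the neutrophil chemoattractant gene Cxcl3 (0.178) and Trem1 (0.292), a receptor gene of neutrophils and monocytes. For Il12b they included Slc1a1 (0.279) and Serpina3f (0.293). Il12rb2 was near to the IL-31 receptor gene Il31ra (0.195) and to Tnfrsf19 (0.202). Il23r was nearest to the haemoglobin genes Hba-a1 (0.128) and Hba-a2 (0.131), whose counts are uncertain as near-identical copies, and to Cd300lh (0.205). Rora was nearest to Dync2li1 (0.0753), Hsf2 (0.0799) and Ppp1r13b (0.0809), Il12a to Slc25a42 (0.155), Kcnc2 (0.206) and Tmem136 (0.225), and Il12rb1 to Rnf40 (0.0495), Ddx39b (0.0503) and Tmem81 (0.0535). These differences are descriptions over 6 libraries that fall into 2 groups. They were taken with a prior of 2 counts added before the log. This prior compresses low counts, such as the 6, 6 and 0 of Il23a in wild type. The fitted log2 fold change was 4.08 for Il23a and 3.40 for Lcn2, and the nearest genes without the prior were not tested.

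Beyond the 7 genes, relatives in the IL-12 family moved in both directions. Of 3 tested relatives, 1 rose and 2 fell (median log2 fold change -0.50), so 100% were called, beside 45.1% of all tested genes. Ebi3, the chain that IL-27 and IL-35 share, fell from 4.90 ± 1.97 to 2.20 ± 0.115 CPM (log2 -1.16, SE 0.31). Il27ra, an IL-27 receptor gene, rose from 1.67 ± 0.272 to 3.02 ± 0.607 CPM, and Il6st, the gene of the signalling chain gp130, fell by 0.50 on the log2 scale. Il27 failed the filter, at 24 counts over each genotype. The number called was 0 without knockout replicate 2 and 1 when wild type replicate 1, knockout replicate 1 or knockout replicate 3 was left out.

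**Figure D4:**
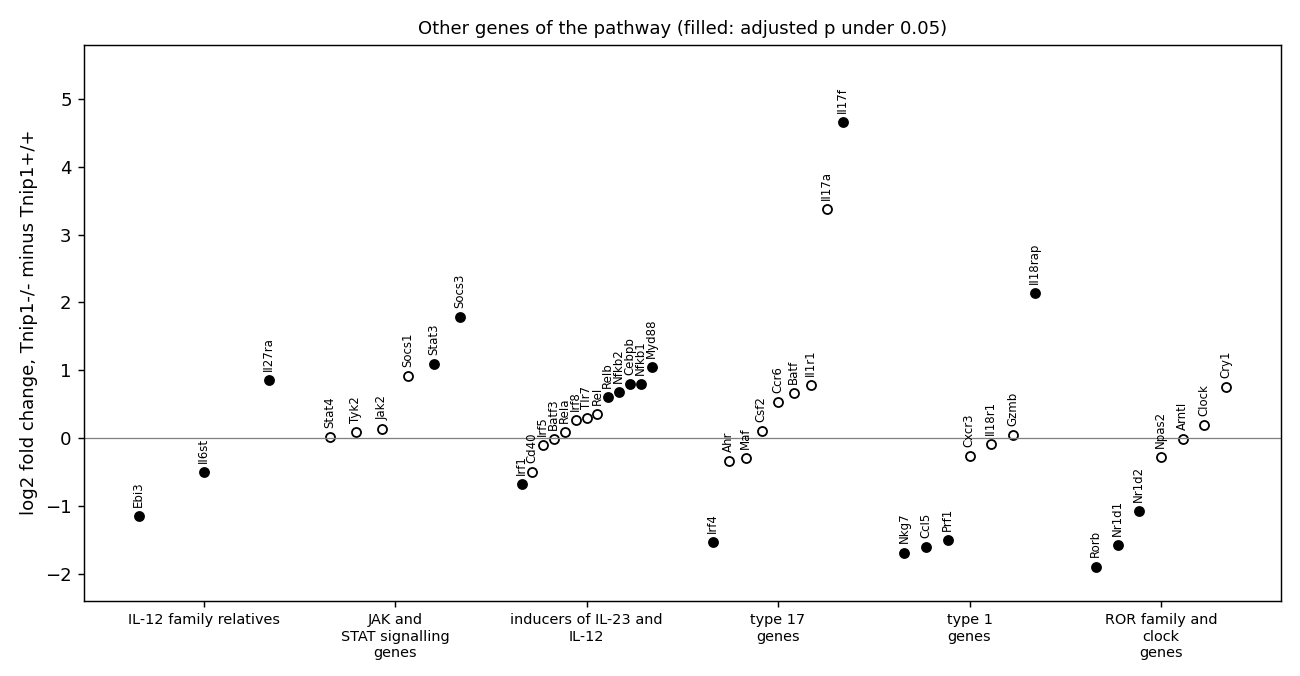
Log2 fold change, knockout minus wild type (y axis), of tested genes in 6 lists (x axis), filled where the adjusted p was under 0.05. Il17f lies highest at 4.66, the type 1 genes Nkg7, Ccl5 and Prf1 lie between -1.69 and -1.5, and Rorb is lowest at -1.90.

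Of 7 JAK and STAT signalling genes, 2 rose and 1 fell (median 0.13). The 42.9% called was near the 45.1% of all tested genes. Stat3, the factor that carries the IL-23 signal, rose from 136 ± 15.1 to 291 ± 73.8 CPM (log2 1.09, SE 0.20, adjusted p = 0.00566 by edgeR). Socs3, a feedback inhibitor that STAT3 induces, rose from 36.5, 19.7 and 20.1 CPM to 151, 68.6 and 42.7 CPM (log2 1.78, SE 0.48). Leaving out wild type replicate 2 (1.62) or 3 (1.64) ended its call, and leaving out knockout replicate 1 gave 1.14. The kinase genes Jak2 (0.13) and Tyk2 (0.09), both attached to these receptors, and Stat4 (0.01), the factor of the IL-12 signal, did not pass the test. Socs1 did not pass either (0.91, adjusted p = 0.0957 by edgeR).

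Among 13 inducers of IL-23 and IL-12, 5 rose and 1 fell (median 0.30). The share called, 46.2%, was near the 45.1% of all tested genes. Genes of NF-kB subunits rose, with Nfkb1 from 77.7 ± 4.45 to 135 ± 25.3 CPM (log2 0.80, SE 0.15), Nfkb2 by 0.68 and Relb by 0.61. Rel (0.35, adjusted p = 0.282) and Rela (0.08, adjusted p = 0.625 by edgeR) did not pass. The adaptor gene Myd88 rose by 1.05 (SE 0.23) and the transcription factor gene Cebpb by 0.79. Irf1, an interferon-inducible transcription factor gene, fell by 0.68 (SE 0.17). Without knockout replicate 1 or 2 the number called was 3. Relb lost its call on library totals (0.45) and when wild type replicate 2 (0.56) or 3 (0.57) or knockout replicate 1 (0.49) was left out, and Irf1 lost it without knockout replicate 2 (-0.57). Nfkb2 and Cebpb both lost their calls on library totals and without knockout replicate 1 or 2. At most 1 of them was called with upper-quartile factors, without wild type replicate 3 or without knockout replicate 3.

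Of 10 tested type 17 genes, 1 rose and 2 fell (median 0.32). At 30%, the share called was below the 45.1% of all tested genes. Il17f, a cytokine made by these cells, had 10, 10 and 6 counts in the wild type and 408, 91 and 14 in the knockout libraries (log2 4.66, SE 1.13, adjusted p = 0.0149 by edgeR). Its knockout libraries ranged from 0.731 to 17.6 CPM, all above the wild type libraries. Like Il23a, Il17f passed the filter only through the knockout libraries. Leaving out knockout replicate 1 gave 2.99, and the call ended when wild type replicate 2 was left out (4.79) and with limma voom (3.71). Il17a, with 13, 3 and 0 against 98, 24 and 4 counts, did not pass (3.37, adjusted p = 0.0557 by edgeR) and its groups overlapped. Its value was 1.84 when knockout replicate 1 was left out and 5.01 when wild type replicate 1 was, and it passed without knockout replicate 3 (3.90), by DESeq2 (3.47), with no filter (3.38) and with the replicate number as a block (3.46). Il22 failed the filter, at 2, 0 and 0 against 70, 26 and 2 counts (ratio of summed counts 66.7, 95% exact interval 18 to 558, counting error only), and Il21 had 1 count in all.

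Irf4, a transcription factor gene of this list, fell by 1.53 (SE 0.37), and lost its call without knockout replicate 3 (-1.46). The chemokine receptor gene Ccr6, carried by type 17 cells, stood at 0.53 (adjusted p = 0.372 by edgeR), with 28, 73 and 18 knockout counts against 45, 33 and 32 in wild type. The number called in this list was 5 by DESeq2, with no filter or when knockout replicate 3 was left out. It was 2, with 0 higher, by limma voom, with the stricter filter or when wild type replicate 2 was left out.

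Of 7 tested type 1 genes, 1 rose and 3 fell (median -0.27), so 57.1% were called, beside 45.1% of all tested genes. The cytotoxic genes Prf1 (perforin) and Nkg7 fell by 1.5 (SE 0.28) and 1.69 (SE 0.34), from 2.65 ± 0.468 to 0.926 ± 0.234 CPM and from 2.46 ± 0.618 to 0.758 ± 0.230 CPM. The chemokine gene Ccl5 fell by 1.61 (SE 0.45). Leaving out wild type replicate 1 or 2 (-1.46 and -1.55) or knockout replicate 2 or 3 (-1.25 and -1.51) ended its call, and leaving out knockout replicate 1 gave -2.22. The gene that rose was Il18rap, an IL-18 receptor chain that IL-12 induces, from 3.30, 4.69 and 3.59 to 23.5, 14.4 and 13.0 CPM (log2 2.14, SE 0.27, adjusted p = 0.00183 by edgeR). Its partner chain gene Il18r1 stood at -0.10 and the granzyme gene Gzmb at 0.05. Ifng failed the filter, at 4, 10 and 8 wild type counts against 0, 1 and 1 knockout counts (knockout to wild type ratio 0.124, 95% exact interval 0.0141 to 0.503, counting error only). Tbx21, the gene of the master factor of type 1 cells, had 29 and 20 counts over the genotypes and Eomes 16 and 6.

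In the list of ROR family and clock genes, which does not hold Rora, 4 of 8 fell and 0 rose (median -0.68). Of all tested genes 45.1% were called, beside 50% of this list. Rorb, a relative of Rora, fell from 2.70 ± 0.893 to 0.721 ± 0.114 CPM (log2 -1.90, SE 0.33), beside Rora at -0.85. Also lower were Nr1d1 (-1.58, SE 0.38) and Nr1d2 (-1.08, SE 0.14), the REV-ERB genes whose products compete with ROR proteins for the same element. Nr1d1 lost its call without knockout replicate 1 (-1.52, adjusted p = 0.0501 by edgeR). Arntl (-0.02), Clock (0.19), Npas2 (-0.28) and Cry1 (0.76) did not pass. The hour at which skin was taken was not given in the sources used here, and its part in these values was not tested.

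In these biopsies, fewer cells of a type and less RNA per cell cannot be told apart, and markers of several cell types moved with the members. Of 8 dendritic cell markers 5 fell and 0 rose, with summed levels of 48.1 to 61.6 CPM in the wild type and 18.1 to 23.1 CPM in knockout skin. None was at 0 in all libraries. Of 8 T cell markers 3 fell and 1 rose (73.7 to 147 against 45.9 to 66.6 CPM summed). Most of that sum was Thy1, which fibroblasts also express, and the other 7 markers, a sum chosen after its values were seen, overlapped at 19.9 to 31.6 against 15.0 to 24.5 CPM. The gamma delta T cell markers Cd163l1 and Blk, the 2 of 7 whose symbols were found, both rose (3.57 to 4.08 against 9.14 to 18.6 CPM summed). Of 3 tested natural killer cell markers none passed in edgeR, at an adjusted or an unadjusted p under 0.05 (3.74 to 5.66 against 2.30 to 4.01 CPM summed over 4). The share called was 62.5% for dendritic cells, 50% for T cells, 100% for gamma delta T cells and 0% for natural killer cells. Over all tested genes it was 45.1%.

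Of 5 tested neutrophil markers all 5 rose (11.4 to 18.9 against 93.3 to 164 CPM summed over 6), and Ly6g was at 0 in each wild type library and in knockout replicate 2. Ngp, at 1, 3 and 1 wild type counts, passed the filter only through its knockout counts. Of 7 monocyte and macrophage markers 1 rose (422 to 638 against 570 to 669 CPM summed). Of 7 keratinocyte markers, which mark the labelled tissue, 4 rose and 1 fell (7089 to 11390 against 20010 to 23170 CPM summed). Krt14, the most abundant, stood at 1222 to 2765 against 10060 to 13950 CPM. The other 6, a sum chosen after its values were seen, stood at 5867 to 8626 against 9219 to 10690 CPM. All 7 skeletal muscle markers fell (8522 to 15190 against 2612 to 4432 CPM summed), and 2 of 6 fat markers fell (1966 to 3759 against 72.3 to 1245 CPM summed, lowest in knockout replicate 2). Called were 100% of tested neutrophil and skeletal muscle markers, 71.4% of keratinocyte, 33.3% of fat and 14.3% of monocyte and macrophage markers. The share of all tested genes was 45.1%. With a score of the muscle and fat markers as a covariate, Il23a stood at 4.09 (adjusted p = 0.0297), Il12rb2 at -2.79 (adjusted p = 0.0172) and Rora at -1.26 (adjusted p = 0.0168 by edgeR), so these 3 calls were kept. In that fit Nfkb2, Cebpb and 11 other genes named here from the pathway lists, markers aside, were no longer called. Of these 11, the log2 fold change was as large or larger for Stat3 (1.11), Socs3 (2.07), Myd88 (1.23), Relb (0.76), Nkg7 (-2.11), Nr1d1 (-2.02) and Il27ra (0.87), and smaller for Irf1 (-0.49), Ccl5 (-0.71), Ebi3 (-0.89) and Il6st (-0.41). Irf4 and Il17f were still called, at -2.41 and 5.56. The part of the other cell types in the members' values was not tested.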

How the data were processed

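RNA was measured in 3 wild type and 3 knockout skin biopsies, from separate mice per the design text. Per the labels' protocols, ribosomal RNA was depleted and stranded libraries were read in pairs. The authors deposited raw counts for each gene symbol, with 1 file per library. The submitters' processing notes name mm9 as the build and list HTSeq, STAR, BWA, CASAVA 1.7, R 3.2.3 and limma. The sources used here do not give their order, settings, strand option or annotation. The 5 summary lines of the counter (26.7% to 30.3% of a file) were left out.

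Tests used edgeR 4.0.16 under R 4.3.3 (filterByExpr, TMM, quasi-likelihood fit, Benjamini-Hochberg adjustment), with limma 3.58.1 voom and DESeq2 1.42.0 among 15 alternatives. The SE of a log2 fold change is its size over the square root of its F. Replicates of a genotype were not duplicates (chi-square over its degrees of freedom 33.3 to 138). The members, lists and tests were chosen with earlier results of these data known. Genes named were the members, Tnip1, up to 4 genes with the smallest p in each list and every called gene of lists with 5 or fewer calls. Other list genes, Serbp1 and Gm15511 were named after their values were seen. Some genes that this rule covers are not reported here by name, while counts and medians of lists include them.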

Additional observations from a re-analysis of the deposited data

How the results depend on the processing

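The 15 alternative fits gave 103 results for the members. All 103 kept their direction, with Il23r at only 0.01 under the muscle and fat covariate. Of these results, 100 left the call as it was. The exceptions were Il12a without wild type replicate 3 and Il12b by DESeq2 and without knockout replicate 3, as given above. Il23a ranged from 3.57 to 4.63, Il12rb2 from -2.79 to -2.0 and Rora from -1.26 to -0.73 over 15 alternatives, called in each, and the number of members called was 3 to 4 with each library left out. The stricter filter left Il12a and Il12b out. With the muscle and fat covariate, 2424 genes were called in place of 7525, 0 relatives, 1 JAK and STAT gene, 1 inducer, 2 type 1 genes and 2 ROR and clock genes. The median log2 fold changes in that fit were -0.41, 0.45, 0.56, -0.28 and -0.93 for these 5 lists, against -0.50, 0.13, 0.30, -0.27 and -0.68. That score was 8.85 to 9.70 in wild type libraries and 7.94, 4.51 and 7.64 in knockout replicates 1, 2 and 3. It is thus tied to genotype and lowest in 1 library, and the cause of the lost calls was not tested. DESeq2 and no filter each called 5 type 17 genes in place of 3, and limma voom and the stricter filter each called 2, with 0 higher. With each library left out, 5471 to 6866 genes were called, 0 to 2 relatives, 2 to 3 JAK and STAT genes, 3 to 6 inducers, 2 to 5 type 17 genes, 3 to 4 type 1 genes and 3 to 5 ROR and clock genes.

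The deviations of same-numbered libraries from their genotype means had correlations of 0.012, -0.21 and 0.19. With 3 libraries per genotype these cannot tell whether the numbers pair the mice. With a replicate block 6465 genes and 3 members were called, and Il17a gained its call (3.46). The within-library differences kept their direction with 1 count added, with the replicate block and without each library, at 2.30 to 4.08 for Il23a to Il12b, -2.68 to -1.28 for Il12a to Il12b, 0.07 to 1.02 for Il23r to Il12rb1 and -2.91 to -2.30 for Il12rb2 to Il12rb1 in the last. At 12 wild type counts, depth limits how precisely the size of the Il23a increase is known.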

Other observations

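Genes of the IL-23 axis differed in which knockout library was highest. Il23a, Il12b, Il17a, Il17f and Il22 were each highest in knockout replicate 1 (2.76, 3.15, 4.22, 17.6 and 3.02 CPM) and lowest in knockout replicate 3 (1.72, 0.575, 0.209, 0.731 and 0.104 CPM). This is not particular to these genes, as Stat3 and Socs3 had the same order, while Irf4 was highest in knockout replicate 2. Il23r and Ccr6, which sit on the responding cells, were highest in knockout replicate 2 (4.19 and 3.09 CPM, against 1.72 to 1.77 and 0.940 to 1.21 CPM in the other knockout libraries). Il12rb1, the other receptor chain, was highest in knockout replicate 1 and lowest in knockout replicate 3, within a narrow range (1.10 to 1.25 CPM). These are single libraries of 1 genotype, chosen after their values were seen, and no test was made.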
